A study of Mus musculus with 19 samples.

Results

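The genes described here encode the machinery that attaches ERα to the plasma membrane and the proteins it meets there: the palmitoyl transferases Zdhhc7 and Zdhhc21, the thioesterases Lypla1 and Lypla2, the caveolins Cav1 and Cav2, the scaffold Strn, the kinase Src and the flotillins Flot1 and Flot2. They were chosen by name, as the array probes whose gene name in the scanner files is one of these 10, and their level was read in RNA of sorted mammary luminal cells (LCs). Of 56605 probes on the array, 22 belong to these genes, all 22 exceeded background on 4 or more arrays, and all 10 genes were therefore among the 20671 genes tested. C451A-ERα mice carry in every cell an ERα whose palmitoylated cysteine is replaced by alanine, and wild-type mice (WT) do not. The 4 groups were C451A mice given estradiol with progesterone (E2+Pg, 5 mice), WT mice given E2+Pg (5 mice), C451A mice given estradiol alone (E2, 5 mice) and WT mice given E2 (4 mice). All were C57Bl/6N females of 8 weeks, ovariectomized at 24 days by the sample labels and given a hormone pellet 10 days later for 21 days, with E2 at 0.01 mg over 60 days and, where added, Pg at 1.5 mg over 60 days. LCs were sorted as CD24+CD29lo cells and each mouse was hybridized to 1 single-colour array, so that replicates are separate mice, named by the numbers in their labels. The RNA level of Esr1, the gene of ERα, cannot check a point mutation, so the genotype was taken from the labels alone.

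Palmitoylation is the reversible attachment of a fatty acid to a cysteine, which lets an otherwise soluble protein dock on a membrane. Enzymes of the DHHC family add the lipid, and DHHC7 and DHHC21 are the members known, from human cells, to act on sex steroid receptors. Acyl protein thioesterases, among them the products of Lypla1 and Lypla2, take it off. Palmitoylated ERα is found with caveolin-1 in caveolae, small pits of the plasma membrane whose coat is built from caveolins and cavins, and signals there through kinases such as Src. Striatin, the product of Strn, binds both ERα and caveolin-1, and flotillins mark other ordered membrane domains. In the mammary epithelium ERα is made by hormone-sensing LCs, which answer estradiol with paracrine signals to their neighbours. These proteins act on ERα after translation, and the array measured their RNA only.

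The probes of Cav1, Lypla1, Zdhhc7 and Src given next each cross an exon junction, since their 60 bases span a longer stretch of the genome, and they are shown because they read spliced RNA and not genomic DNA. By the positions in the files (mm9), they cover chr6:17258018-17289144 on the plus strand for Cav1 (31127 bases of genome), chr1:4831156-4835044 on the plus strand for Lypla1 (3889 bases), chr8:122608788-122609266 on the minus strand for Zdhhc7 (479 bases) and chr2:157293336-157294267 on the plus strand for Src (932 bases). All are exonic. The Lypla1 probe is the one whose level stands for its gene, and the other 3 are second probes of their genes.
Cav1 A_65_P07350: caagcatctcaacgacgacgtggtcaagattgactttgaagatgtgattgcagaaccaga
Lypla1 A_55_P2731816: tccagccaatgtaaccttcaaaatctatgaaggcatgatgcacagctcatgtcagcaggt
Zdhhc7 A_52_P175461: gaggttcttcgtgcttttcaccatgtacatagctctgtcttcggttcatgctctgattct
Src A_51_P426214: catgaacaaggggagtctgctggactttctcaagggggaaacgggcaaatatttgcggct

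Cav1 and Cav2 are neighbours on chromosome 6 and had the largest differences with Pg among the 10 genes, so the 250 bases before their start sites are shown, from RefSeq on GRCm38.p6, both on the plus strand. The Cav2 window is chr6:17280935-17281184 and the Cav1 window, before the first of its 2 listed starts, is chr6:17306085-17306334. Capitals mark GGGCGG (the GC box) and AGAACA (the core letters bound by progesterone and glucocorticoid receptors), on either strand.
Cav2 promoter: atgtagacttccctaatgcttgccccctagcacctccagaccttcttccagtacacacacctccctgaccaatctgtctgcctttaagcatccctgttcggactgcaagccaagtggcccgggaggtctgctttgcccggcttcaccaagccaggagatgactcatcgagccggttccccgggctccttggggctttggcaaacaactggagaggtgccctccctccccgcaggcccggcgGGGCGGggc
Cav1 promoter: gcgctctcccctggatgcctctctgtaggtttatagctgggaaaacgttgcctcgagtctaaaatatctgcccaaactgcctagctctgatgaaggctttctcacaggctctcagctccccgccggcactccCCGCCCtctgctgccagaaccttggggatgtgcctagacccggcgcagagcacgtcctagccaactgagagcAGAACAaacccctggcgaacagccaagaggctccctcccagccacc

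Promoters of 8 of the 10 genes were found in the RefSeq table, 9 windows in all. GGGCGG or its complement CCGCCC stood in 7 of the 9 windows (Cav1, Cav2, Flot2, Lypla2, Src, Strn and Zdhhc21), against 32.7% of 32851 promoters of the same length. AGAACA or TGTTCT stood in 1, that of Cav1, against 16.1% of all promoters. AGGTCA or TGACCT, the core letters bound by estrogen receptors, stood in none, against 14.0% of all promoters, and no window held the complete palindromic estrogen response element (0.0639% of all promoters) or progesterone response element (0.0304%), each of which overlaps the core letters of its receptor. These matches are descriptions of the letters in these windows.

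By array, the upper quartile of the signal was 248.5 to 490 over a background of 21 to 29, and the number of arrays limits the precision. Levels below are log2 of the median signal after quantile normalization, on which each probe has its own scale, so that a gene is compared between mice and never with another gene. The sort was checked by marker genes: all 8 pan-luminal and all 8 hormone-sensing markers were well above background on every array. So were all 10 basal and all 8 fibroblast markers, 5 of 10 endothelial (Emcn, Vwf, Egfl7, Cldn5 and Esam), 4 of 7 adipocyte (Lep, Fabp4, Cd36 and Lpl), 6 of 8 immune (Ptprc and Csf1r among them) and 3 of 5 skeletal muscle markers (Acta1, Tnnt3 and Myl1), so RNA of other cell types was present. Of the defining markers, the endothelial Tek and the adipocyte Adipoq and Plin1 were above background on 0 arrays and the endothelial Tie1 on 3. In bulk RNA, fewer cells of a type and less RNA per cell cannot be told apart.

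None of the 10 genes passed the test in any of the 6 comparisons made. The call needed a limma p under 0.05 after Benjamini-Hochberg adjustment over all genes, together with a fold above 1.5. By that rule 0 of 10 were called between C451A and WT under E2 (0.029% of all genes were), 0 of 10 between C451A and WT under E2+Pg (0.00484%), 0 of 10 for E2+Pg against E2 in C451A mice (2.46%) and 0 of 10 for E2+Pg against E2 in WT mice (1.33%). The count was also 0 for C451A against WT averaged over both treatments (2.29% of all genes) and for the interaction of genotype and Pg (0%). With no adjustment, limma p lay under 0.05 for 1, 1, 4 and 0 of 10 genes in the first 4 comparisons, for 3 in the average and for 0 in the interaction, where the shares of all genes were 13.6%, 18.3%, 18.4%, 16.3%, 18.3% and 9.38%. No gene of the 10 had groups without overlap in any of the 4 pairwise comparisons, a pattern that 3.51%, 2.61%, 5.04% and 8.68% of all genes had in the same order. The plot of levels by mouse shows this overlap gene by gene.

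**Figure D1:**
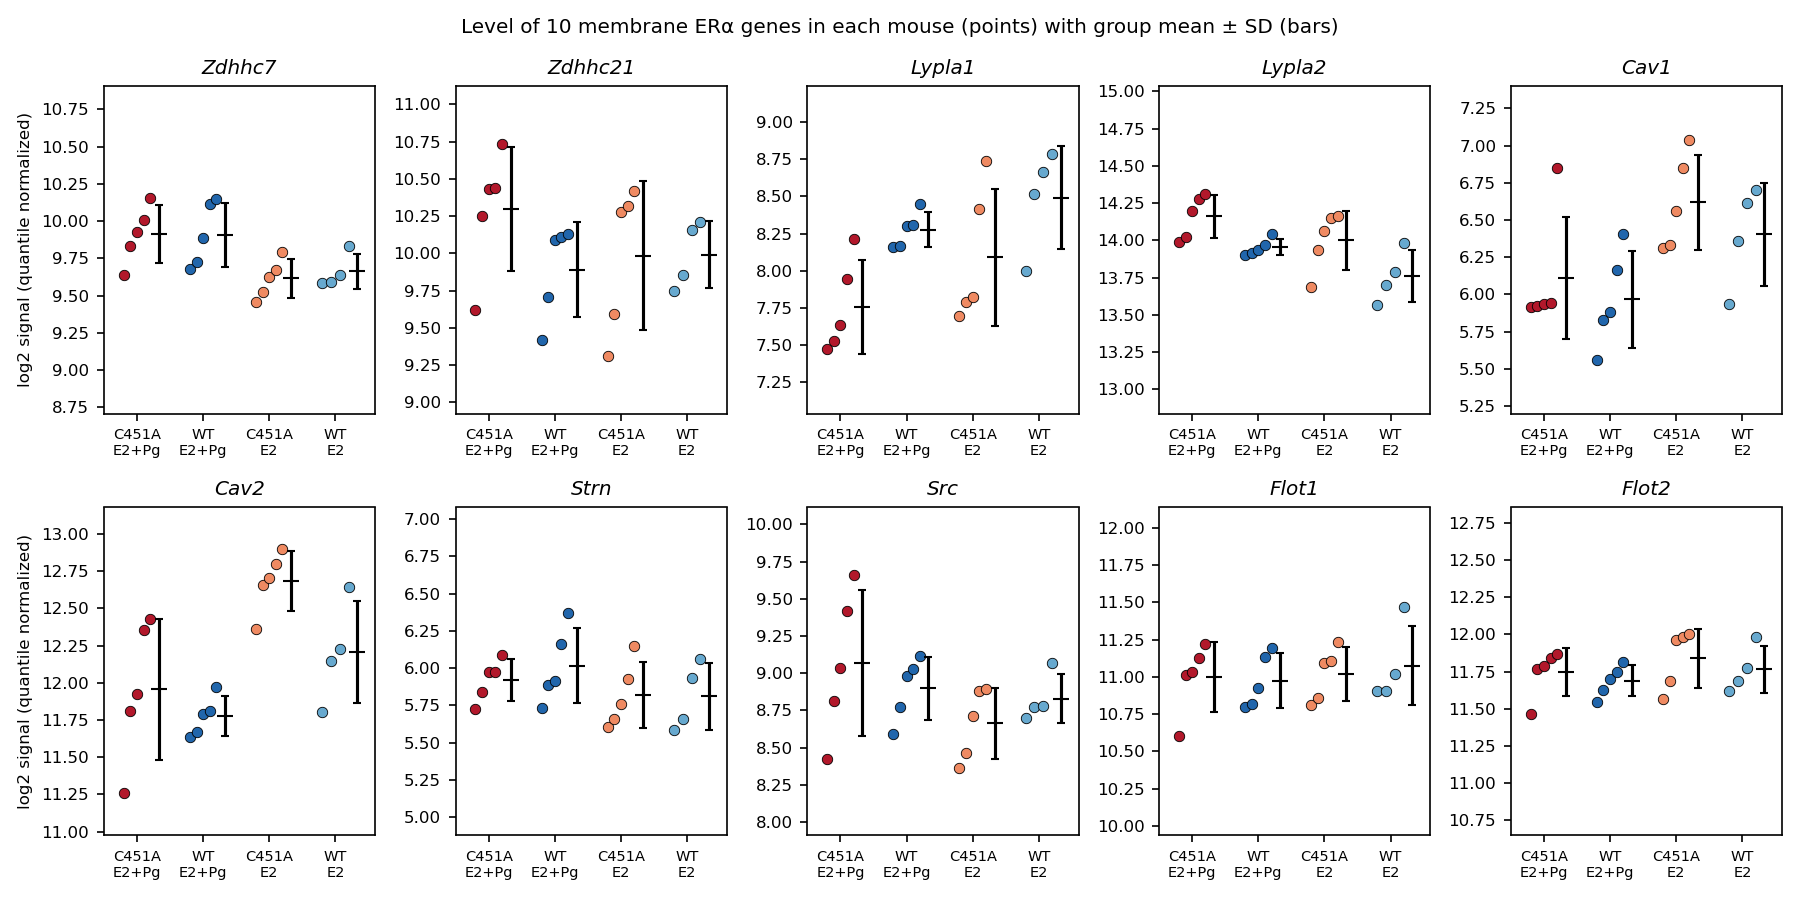
Level of each of the 10 genes in each mouse (points, log2 signal after quantile normalization), by group from left to right C451A E2+Pg, WT E2+Pg, C451A E2 and WT E2, with the group mean ± SD as bars. Every panel spans the same number of log2 units around its own gene, and in every panel the groups of each of the 4 pairwise comparisons overlap.

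The median log2 difference of the 10 genes lay close to 0 in every comparison. It was 0.10 for C451A against WT under E2+Pg (−0.028 over all genes), 2e-04 under E2 (0.027 over all genes), 0.040 for E2+Pg against E2 in C451A mice (0.0017 over all genes) and −0.090 in WT mice (0.043 over all genes). The largest single differences were those of Cav2, Lypla1 and Cav1, and the one past a fold of 1.5 was that of Cav2 with Pg in C451A mice. The intervals show what these arrays could measure: a difference of 1.5-fold lies inside the 95% interval of some genes and outside that of others, Zdhhc7 and both flotillins among them.

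**Figure D2:**
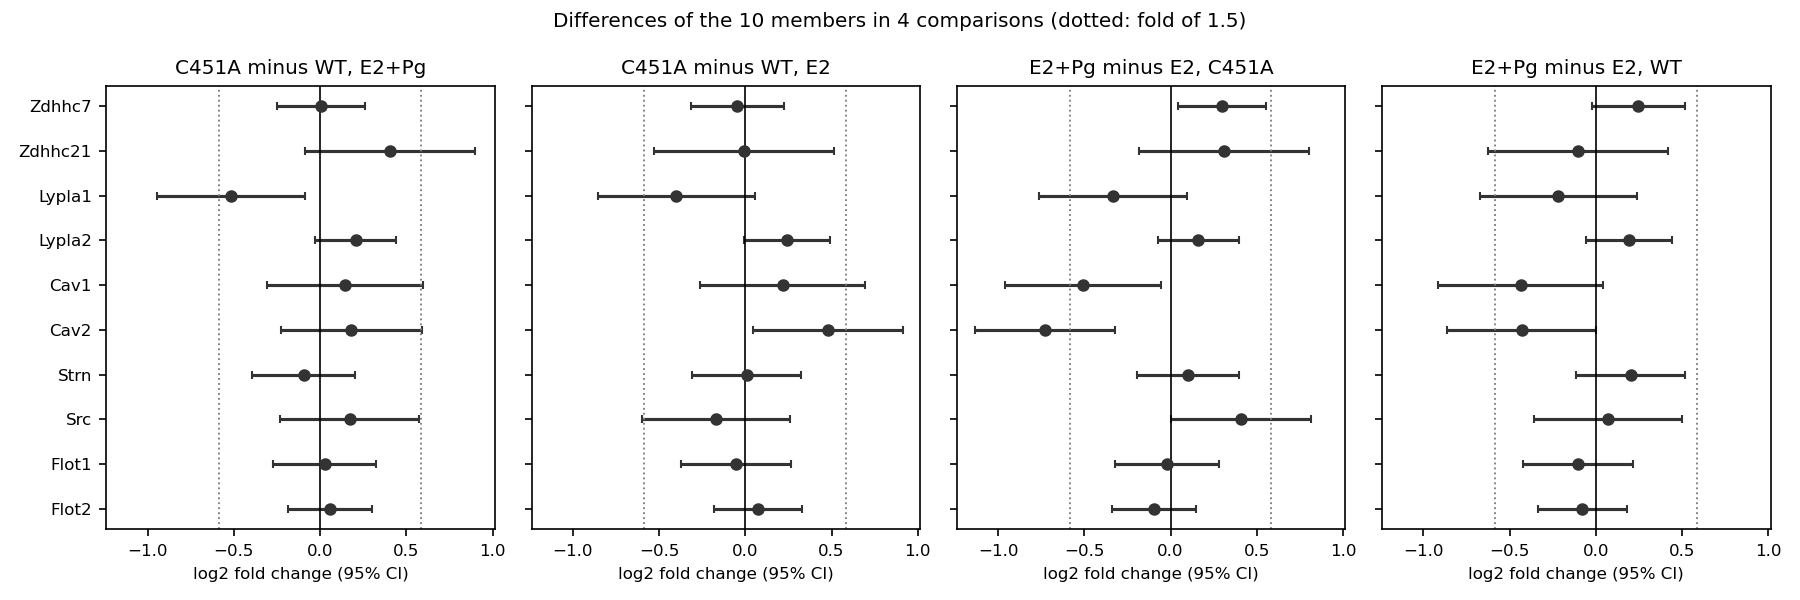
Log2 differences of the 10 genes (points) with 95% confidence intervals (bars) in 4 comparisons, from left to right C451A minus WT under E2+Pg, C451A minus WT under E2, E2+Pg minus E2 in C451A and E2+Pg minus E2 in WT, with dotted lines at a fold of 1.5. The point for Cav2 with Pg in C451A mice, at −0.73, is the one that lies past a fold of 1.5.

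Zdhhc7, a transferase of the Golgi, had nearly equal levels in both genotypes. It averaged 9.91 ± 0.19 in C451A and 9.91 ± 0.21 in WT under E2+Pg (SD, n = 5 each), and 9.62 ± 0.13 in C451A (n = 5) and 9.66 ± 0.12 in WT (n = 4) under E2. The genotype difference was 0.0032 (95% interval −0.25 to 0.26) under E2+Pg and −0.047 (−0.32 to 0.22) under E2, intervals that stay within a 1.5-fold change. Between treatments, C451A mice had 9.83, 9.64, 10.16, 9.93 and 10.01 with E2+Pg and 9.63, 9.53, 9.46, 9.67 and 9.79 with E2. WT mice had 9.68, 9.88, 10.11, 10.15 and 9.73 with E2+Pg and 9.59, 9.59, 9.83 and 9.64 with E2. In both genotypes most mice with Pg lay above most mice without it, with some overlap. The log2 difference was 0.30 (SE 0.12, limma adjusted p = 0.195) in C451A and 0.25 (SE 0.13, adjusted p = 0.35) in WT, and it was positive on 5 of 5 and 4 of 4 array slides. Over 30 alternative settings it ran from 0.12 to 0.37 in C451A (adjusted p from 0.0715 to 0.721) and from 0.19 to 0.38 in WT (0.0345 to 0.593). These levels are those of the brighter probe, and the dimmer one did not rise with Pg in C451A, as given below. Exact permutation tests of the means, two-sided and not adjusted, gave p = 0.0238 in C451A and p = 0.0952 in WT, where the smallest possible p is 0.0079. In the order of the 4 groups, WT E2+Pg and WT E2 were the one pair of neighbours further apart than the larger SD.

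Zdhhc21, the second transferase linked to ERα, varied more between mice than between groups. It averaged 10.30 ± 0.42 in C451A and 9.89 ± 0.32 in WT under E2+Pg (n = 5 each), and 9.98 ± 0.50 in C451A (n = 5) and 9.99 ± 0.23 in WT (n = 4) under E2. C451A mice with E2+Pg ran from 9.62 to 10.74 and WT mice with E2+Pg from 9.41 to 10.13, so the groups overlapped. The log2 difference was 0.41 (SE 0.23, adjusted p = 0.332) under E2+Pg and −0.0070 (SE 0.25, adjusted p = 0.994) under E2, and the interaction was 0.41 (95% interval −0.30 to 1.13, adjusted p = 0.548). None of the neighbours in the order of groups differed beyond the larger SD.

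Across the DHHC family, 22 of 26 listed transferases and cofactors were tested, and 1 passed the test, for Pg in C451A mice, where 2.46% of all genes were called. Zdhhc14 rose with Pg in C451A mice by 1.08 on the log2 scale (SE 0.26, adjusted p = 0.0302). Its level ran from 7.21 to 8.71 (median 8.01) in C451A mice with E2+Pg and from 6.36 to 7.53 (median 6.96) in C451A mice with E2, so that the groups overlapped. The call was lost in 8 of 30 alternative settings, among them the slide as a block (adjusted p = 0.0536) and leaving out mouse L61 (adjusted p = 0.1). In WT mice it ran from 7.08 to 8.11 with E2+Pg and from 6.51 to 6.99 with E2, without overlap (as 8.68% of all genes had), and the difference of 0.87 (SE 0.27) had an adjusted p of 0.12. Zdhhc23 had the lowest p with Pg in WT mice, at a difference of 0.76 (adjusted p = 0.072). Between genotypes none of the 22 was called, and those of lowest p were Zdhhc12 (−0.92, adjusted p = 0.177) and Zdhhc13 (0.51, adjusted p = 0.206) under E2+Pg and Zdhhc1 (0.59, adjusted p = 0.284) and Zdhhc2 (0.32, adjusted p = 0.367) under E2. The family's median difference with Pg was 0.15 in C451A and 0.098 in WT, against 0.0017 and 0.043 over all genes.

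The thioesterases Lypla1 and Lypla2 stood on opposite sides of 0 between genotypes, and neither was called. Lypla1 had 7.53, 8.21, 7.63, 7.94 and 7.47 in C451A mice with E2+Pg, against 8.16, 8.30, 8.31, 8.45 and 8.17 in WT mice with E2+Pg. In this comparison 4 C451A values lay below every WT value, and mouse L18 (8.21) reached into the WT range. Under E2, C451A mice had 8.74, 7.69, 8.41, 7.82 and 7.79 and WT mice 8.66, 8.52, 8.00 and 8.79, with C451A mouse L4 near the top of both groups. The difference was −0.52 (SE 0.20, adjusted p = 0.22) under E2+Pg, where 0 of 5 slides had the C451A mouse higher, and −0.40 (SE 0.22, adjusted p = 0.447) under E2. Exact permutation tests gave p = 0.0238 under E2+Pg and p = 0.19 under E2. Averaged over both treatments it was −0.46 (SE 0.15, 95% interval −0.77 to −0.15, adjusted p = 0.0979), with an interaction of −0.12 (−0.74 to 0.51). When each array was weighted by its residual spread, the average was −0.66 (adjusted p = 0.000241). The difference under E2 was then −0.75 (adjusted p = 0.000739), and both were called. The lowest weights fell on mice L4, L27 and L18 (0.24, 0.28 and 0.30), which had the highest Lypla1 values of the C451A mice. Under E2 this weighting called 2238 of all genes, against 6 without it. Without mouse L4, L72 or L18 the average was −0.54, −0.54 and −0.52, with adjusted p = 0.0245, 0.0292 and 0.0499, at a fold below 1.5. Other settings weakened it: over 29 alternative settings the average ran from −0.66 to −0.23, with adjusted p up to 0.223. Under E2 the difference ran from −0.75 to −0.14 over 30 settings, with adjusted p up to 0.764.

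Lypla2 averaged 14.16 ± 0.15 in C451A and 13.95 ± 0.055 in WT under E2+Pg (n = 5 each), and 14.00 ± 0.20 in C451A (n = 5) and 13.76 ± 0.17 in WT (n = 4) under E2. Under E2+Pg the C451A mice had 14.02, 13.99, 14.28, 14.19 and 14.31 and the WT mice 13.90, 14.04, 13.91, 13.97 and 13.94, so 3 C451A mice lay above all WT mice. The averaged genotype difference was 0.23 (SE 0.082, adjusted p = 0.138), a fold of 1.17. The group with the lowest level was WT E2, which lay below its neighbour WT E2+Pg by 0.20, more than the larger SD. All 9 listed thioesterases were tested and 0 were called in any comparison. The lowest p belonged to Abhd17c, a depalmitoylase of the ABHD17 family, with an averaged genotype difference of 0.52 (SE 0.14, adjusted p = 0.0547) and 0.71 (adjusted p = 0.144) under E2.

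Cav2, which forms mixed oligomers with caveolin-1, had the largest difference of the 10 genes. C451A mice had 12.43, 11.26, 11.81, 11.93 and 12.36 with E2+Pg, against 12.36, 12.71, 12.80, 12.90 and 12.65 with E2. WT mice had 11.79, 11.97, 11.67, 11.81 and 11.64 with E2+Pg, against 12.23, 11.81, 12.64 and 12.15 with E2. In both genotypes the mice with Pg were mostly below those without it, and the overlap came from mouse L56 (12.43) set against L4 (12.36) in C451A, and from mouse L50 (11.81) in WT. The log2 difference was −0.73 (SE 0.19, 95% interval −1.14 to −0.32) in C451A, with an adjusted p of 0.0504 that missed the threshold and rank 608 among the 20671 genes. In WT it was −0.43 (SE 0.21, adjusted p = 0.312). Exact permutation tests gave p = 0.0159 in C451A and p = 0.0397 in WT. The interaction, which tests whether the effect of Pg differs between genotypes, was −0.30 (95% interval −0.89 to 0.30, adjusted p = 0.598).

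Under E2 alone, Cav2 averaged 12.68 ± 0.20 in C451A (n = 5) and 12.21 ± 0.34 in WT (n = 4), a difference of 0.48 (SE 0.21, adjusted p = 0.31) that was positive on 4 of 4 slides (0.14 to 0.90), with an exact permutation p of 0.0397. Under E2+Pg it averaged 11.96 ± 0.47 in C451A and 11.78 ± 0.13 in WT (n = 5 each), a difference of 0.18 (adjusted p = 0.612). In the order of the groups, C451A E2 lay above WT E2 by more than the larger SD, and the lower neighbours did not differ beyond it. Cav2 crossed the threshold with Pg in C451A mice in some settings: with the authors' value table (adjusted p = 0.0318), with normexp background correction (0.0475), with array weights (0.0173), with probes above background on all arrays (0.0386), and without mouse L56 (0.0288), L63 (0.0423), L50 (0.0492) or L72 (0.0391). With the mean over its probes in place of the brightest, the difference was −0.45 (adjusted p = 0.228).

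Cav1, the protein that builds caveolae, gave a dim signal that was well above background on 18 of 19 arrays. C451A mice had 5.94, 5.92, 5.91, 5.94 and 6.85 with E2+Pg, against 6.33, 6.85, 6.31, 7.04 and 6.56 with E2. Of the C451A mice with Pg, 4 lay below every C451A mouse without it, and mouse L63 (6.85) stood among the highest of those without it. WT mice had 5.88, 6.40, 5.82, 6.16 and 5.56 with E2+Pg, against 6.70, 5.93, 6.62 and 6.36 with E2, with overlap on both sides. The log2 difference with Pg was −0.51 (SE 0.21, adjusted p = 0.213) in C451A and −0.44 (SE 0.23, adjusted p = 0.353) in WT, and exact permutation tests gave p = 0.0635 and p = 0.0952. Between genotypes it was 0.14 (SE 0.21, adjusted p = 0.72) under E2+Pg and 0.22 (SE 0.23, adjusted p = 0.726) under E2.

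Levels of the 2 caveolins were set against each other across mice. Over the 19 mice Pearson's r was 0.77 (permutation p = 0.00013) and Spearman's rho 0.81 (permutation p = 4e-05), and r was 0.70 (permutation p = 0.0021) without mice L21 and L76, the farthest from the median of Cav1. As the groups differ in both genes, the deviations from group means were also set against each other: r was 0.59 (permutation p = 0.00703, adjusted 0.00703 over 4 correlations), rho was 0.66 (permutation p = 0.00241, adjusted 0.00321), and r was 0.49 (permutation p = 0.0445) without mice L62 and L63. With the slide as a block r was 0.63, and 0.46 (permutation p = 0.0646) without the same mice. Within groups, other pairs of the 10 genes had higher r, such as Cav2 with Flot1 (0.73), Cav1 with Src (0.68) and Cav1 with Flot1 (0.66).

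**Figure D3:**
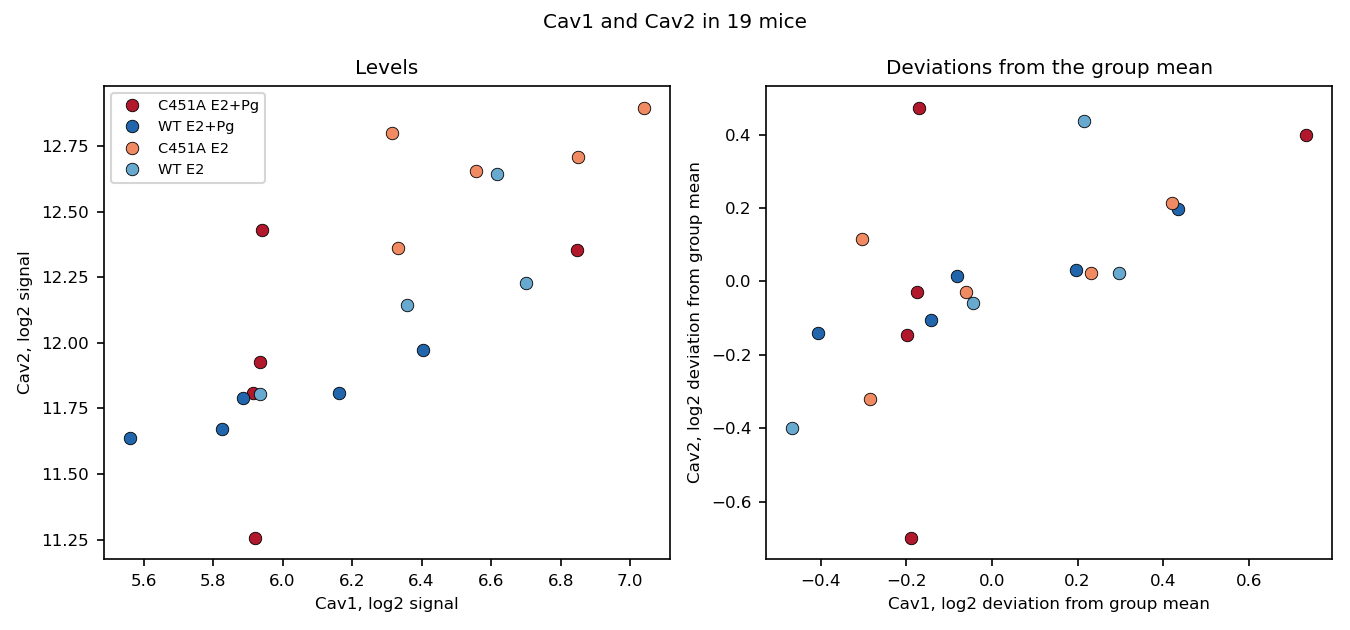
Cav2 against Cav1 in 19 mice, as levels (left, log2 signal) and as deviations from the group mean (right, log2), with 1 point per mouse coloured by group. The points rise together in both plots (r = 0.77 and 0.59), with a Pg-treated C451A mouse, L18, lowest in Cav2.

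In the wider coat of caveolae, 13 of 13 listed genes were tested and 0 were called in any comparison. Cavin1, the cavin that caveolae cannot form without, had the lowest p of the list in the averaged genotype comparison and under E2+Pg, and the lowest after Cav2 with Pg in C451A mice. Its level ran from 11.94 to 12.42 (median 12.12) in C451A mice with E2+Pg and from 12.27 to 13.42 (median 13.07) in WT mice with E2+Pg, and from 12.44 to 13.46 in C451A mice with E2 and from 12.68 to 13.92 in WT mice with E2. C451A mice with E2+Pg all lay narrowly below C451A mice with E2 (highest 12.42 against lowest 12.44), a separation that 5.04% of all genes had. The difference was −0.82 (SE 0.25, adjusted p = 0.0788). The averaged genotype difference of Cavin1 was −0.63 (SE 0.18, adjusted p = 0.0634), opposite in sign to those of Cav1 (0.18) and Cav2 (0.33), neither of which was called. Those of Cavin2 (−0.15), Cavin3 (−0.55) and Cavin4 (−0.26) were negative too. In that comparison 2 of the 13 genes were higher and 4 lower at unadjusted p under 0.05, which 18.3% of all genes reached. With Pg, 3 of the 13 differences were positive in WT mice and 6 of 13 in C451A mice. In WT mice the positive ones included Cavin2 at 0.68 (adjusted p = 0.161) and Ror1, a receptor that binds cavin-1, at 1.0 (adjusted p = 0.0893). Cavin3 differed there by −0.92 (adjusted p = 0.218). The list's median with Pg was −0.21 in C451A and −0.43 in WT, against 0.0017 and 0.043 over all genes.

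**Figure D4:**
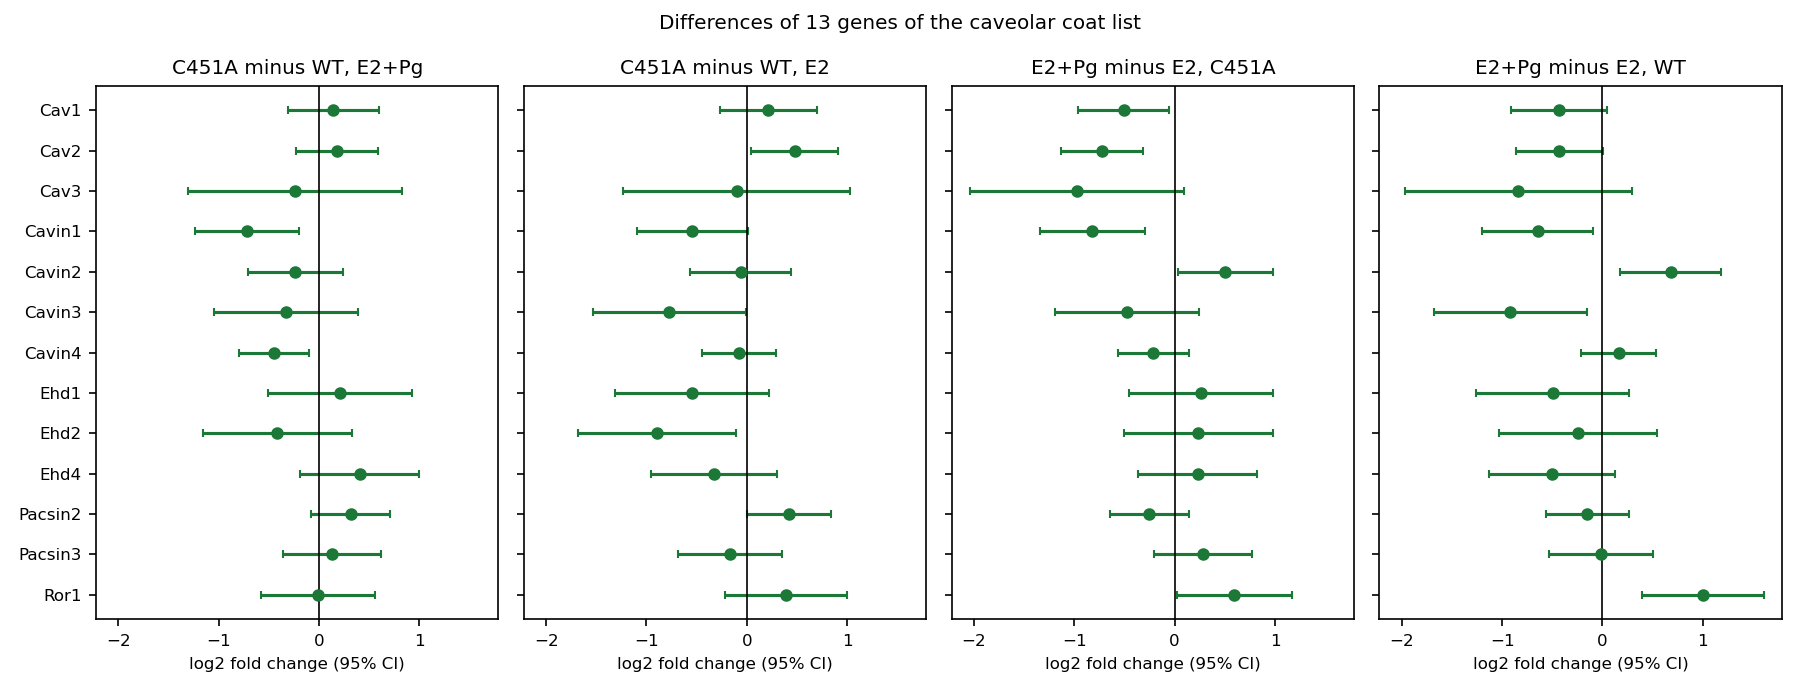
Log2 differences (points) with 95% confidence intervals (bars) of 13 genes of the caveolar coat in 4 comparisons, from left to right C451A minus WT under E2+Pg, C451A minus WT under E2, E2+Pg minus E2 in C451A and E2+Pg minus E2 in WT. Cavin1 lies left of 0 in all 4 panels, while Cavin2 and Ror1 lie right of 0 in both Pg panels.

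Levels of cell type markers were also described in the 4 groups. A summed level adds the signals of the markers in a list, so bright markers weigh most in it, and it is compared between mice only. The summed level of 8 hormone-sensing markers ran from 14.71 to 16.44 in C451A E2+Pg, 15.02 to 15.99 in WT E2+Pg, 16.68 to 17.27 in C451A E2 and 16.04 to 17.17 in WT E2, lower with Pg, as the fitted differences of Cav1 and Cav2 were. All 8 fitted differences with Pg were negative in both genotypes, with medians of −1.17 in C451A and −0.85 in WT, unadjusted p under 0.05 for 8 and 7 markers, 4 and 0 calls, and 0 called interactions. Under E2 the median summed level of these markers was 17.22 in C451A and 16.19 in WT, higher in C451A, as Cav2 was. Of the 8 fitted genotype differences under E2, 5 were positive, with a median of 0.38 and 0 calls. Averaged over both treatments, 1 of these markers was called higher in C451A and 1 lower. Endothelial markers, 8 of 10 of which were tested, ran from 11.34 to 11.73 in C451A E2+Pg, 10.98 to 11.93 in WT E2+Pg, 10.97 to 11.59 in C451A E2 and 10.38 to 11.27 in WT E2. Their medians were 11.57 in C451A E2+Pg, 11.34 in WT E2+Pg, 11.20 in C451A E2 and 10.78 in WT E2. The summed level was thus higher with Pg, unlike Cav2, and higher in C451A under E2, like Cav2. Marker by marker, 6 of 8 differences with Pg were positive in C451A, with a median of 0.056. They ran from −0.37 (Egfl7) to 1.13 (Vwf), so the higher sum in C451A does not describe most of these markers. In WT all 8 were positive, with a median of 0.39. Skeletal muscle markers, which matter for the muscle genes Cav3 and Cavin4, ran from 8.52 to 12.88 in C451A E2+Pg, 8.15 to 15.36 in WT E2+Pg, 9.33 to 14.43 in C451A E2 and 13.04 to 14.00 in WT E2. Their medians were 10.99, 9.47, 13.84 and 13.48 in the same order. All 5 fitted differences with Pg were negative in both genotypes, with medians of −2.11 in C451A and −2.97 in WT. Unadjusted limma p lay under 0.05 for 0 and 5 of them, and 0 were called. The 10 basal markers ran from 14.68 to 15.20 in C451A E2+Pg, 14.48 to 15.20 in WT E2+Pg, 14.45 to 15.16 in C451A E2 and 14.95 to 15.41 in WT E2, and 0 were called. Of the basal markers, 7 of 10 had a positive difference with Pg in C451A (median 0.22) and 4 of 10 in WT (median −0.21). The largest difference was that of Krt5, at −1.91 in C451A (adjusted p = 0.128) and −2.67 in WT (adjusted p = 0.0682). Tagln went the other way, by 0.51 in C451A (adjusted p = 0.368) and 0.92 in WT (adjusted p = 0.146). Adipocyte markers, 5 of 7 of which were tested, ran from 9.55 to 11.33 in C451A E2+Pg, 10.03 to 11.14 in WT E2+Pg, 9.88 to 11.13 in C451A E2 and 9.90 to 10.05 in WT E2, and Fabp4 differed with Pg in WT mice by 0.85 (adjusted p = 0.325). The part of these cell types in the results was not tested.

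The probes of a gene did not always give the same difference. Of the 3 Cav2 probes, the 2 bright ones differed with Pg in C451A by −0.73 and −0.70, whereas A_52_P55846, which was well above background on 11 arrays, differed by 0.092. Both Cav1 probes gave −0.51 and −0.54 for the same comparison, and −0.44 and −0.56 in WT. For Lypla1 under E2+Pg, 2 probes gave a genotype difference of −0.52 and −0.67, and the third, A_55_P2714114, was above background on 1 of 5 C451A and 2 of 5 WT arrays, too few for a comparison. Under E2 the second Lypla1 probe, A_52_P8227, averaged 8.09 in C451A and 8.26 in WT, closer together than the 8.09 and 8.49 of the probe that stands for the gene. The junction probe of Zdhhc7 shown above gave a genotype difference of 0.45 under E2, where the brighter probe of the gene gave −0.047. In C451A mice this junction probe averaged 6.03 with E2+Pg and 6.08 with E2, where the brighter probe rose. In WT mice it averaged 6.16 with E2+Pg and 5.64 with E2. Among the 4 Zdhhc21 probes, A_55_P2716726 had a difference of 1.17 (SE 0.48, adjusted p = 0.215) under E2+Pg and the others 0.12 to 0.41. None of the 22 probes was called in any comparison when all probes of the array were fitted.

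**Figure D5:**
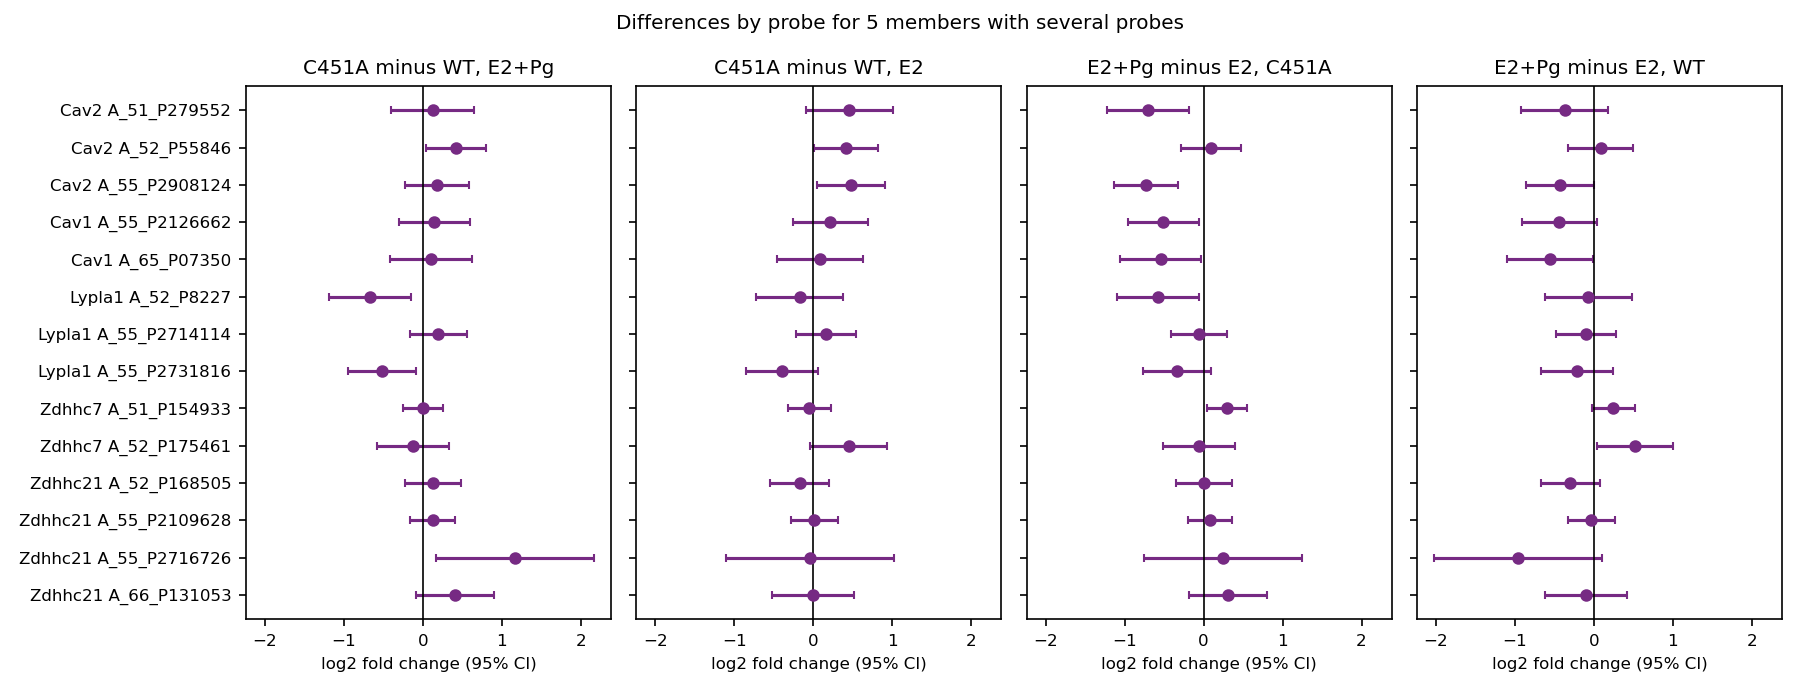
Log2 differences (points) with 95% confidence intervals (bars) for each probe of 5 genes with several probes, in 4 comparisons, from left to right C451A minus WT under E2+Pg, C451A minus WT under E2, E2+Pg minus E2 in C451A and E2+Pg minus E2 in WT. Both Cav1 probes lie together, as do the bright probes of Cav2 and of Lypla1, the dimmer Cav2 probe A_52_P55846 lies apart with Pg, and the interval of A_55_P2716726 is the widest.

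Strn, the scaffold that ties ERα to caveolin-1 and to protein phosphatase, gave a dim signal from its 1 probe, which was above background on all 19 arrays. It averaged 5.92 ± 0.14 in C451A and 6.01 ± 0.25 in WT under E2+Pg (n = 5 each), and 5.82 ± 0.22 in C451A (n = 5) and 5.81 ± 0.23 in WT (n = 4) under E2. The largest of its differences was 0.20 with Pg in WT mice (SE 0.15, adjusted p = 0.496), and no neighbouring groups differed beyond the larger SD. Its complex, STRIPAK, joins striatins with phosphatase subunits and kinases. All 21 listed genes were tested and 0 were called in any comparison, with the lowest p for Strip2 (0.64, adjusted p = 0.258) between C451A and WT under E2 and for Cttnbp2nl (0.70, adjusted p = 0.143) with Pg in C451A.

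Src, the tyrosine kinase that palmitoylated ERα engages, had 9.04, 8.42, 9.42, 8.81 and 9.66 in C451A mice with E2+Pg, against 8.37, 8.71, 8.46, 8.88 and 8.89 in C451A mice with E2. Mice L61 and L63 had the highest values with Pg and L18 was as low as the mice without it. The difference was 0.41 (SE 0.19, adjusted p = 0.267), and an exact permutation test gave p = 0.143. In WT mice it averaged 8.90 ± 0.21 with E2+Pg (n = 5) and 8.83 ± 0.16 with E2 (n = 4), a difference of 0.070 (adjusted p = 0.884), and the interaction was 0.34 (95% interval −0.25 to 0.93). Genotype differences were 0.17 under E2+Pg (adjusted p = 0.628) and −0.17 under E2 (adjusted p = 0.767). Of 14 listed kinases of the Src family and their regulators, 12 were tested and 0 were called. Pag1, a palmitoylated adaptor that recruits the Src inhibitor Csk, had the largest genotype difference under E2+Pg at 1.23 (SE 0.30, adjusted p = 0.11), and Fyn the lowest p with Pg in C451A mice (0.46, adjusted p = 0.114).

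Flot1 and Flot2, whose proteins assemble with each other, differed little in any comparison. Flot1 ran from 10.61 to 11.22 in C451A and from 10.79 to 11.20 in WT under E2+Pg, and from 10.81 to 11.23 in C451A and from 10.91 to 11.47 in WT under E2. Flot2 averaged 11.75 ± 0.16 in C451A and 11.69 ± 0.10 in WT under E2+Pg, and 11.84 ± 0.20 in C451A and 11.77 ± 0.16 in WT under E2, so that in both genes the groups lay almost on top of each other. Across the 4 pairwise comparisons Flot1 differed by −0.10 to 0.027 and Flot2 by −0.094 to 0.074, and every interval excluded a 1.5-fold change. Of 11 listed proteins with the same membrane domain, 9 were tested and 0 were called, with the lowest p for Phb2 (0.42, adjusted p = 0.168) with Pg in WT mice.

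Esr1, the gene of ERα itself, had 10.67, 9.34, 9.26, 10.03 and 11.52 in C451A mice with E2+Pg, and 9.79, 9.37, 9.57, 9.88 and 9.89 in WT mice with E2+Pg. Under E2 the C451A mice had 10.69, 11.60, 11.09, 11.37 and 11.11 and the WT mice 10.76, 10.31, 10.89 and 10.70. With Pg the groups did not overlap in WT (−0.97, adjusted p = 0.164), a pattern that 8.68% of all genes had in that comparison. In C451A they overlapped through mouse L63 (−1.01, adjusted p = 0.0937). The genotype differences were 0.46 under E2+Pg and 0.51 under E2 (adjusted p = 0.418 and 0.553). None of these was called. The calls of Esr1 depended on the setting: with Pg in C451A mice it was called without mouse L63 (−1.35, adjusted p = 0.0103) and with array weights (−1.05, adjusted p = 0.0218), and with Pg in WT mice in a fit to those groups alone (adjusted p = 0.0214) and with array weights (adjusted p = 0.0265). Array weights also gave a call between C451A and WT under E2 (0.67, adjusted p = 0.0488) and in the average over both treatments (0.62, adjusted p = 0.0167).

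Among 24 listed partners and effectors of ERα at the membrane, 23 were tested and 2 were called, both for Pg in C451A mice, where 2.46% of all genes were called. Egfr, the EGF receptor that membrane estrogen signaling can transactivate, ran from 10.67 to 11.05 (median 10.96) in C451A mice with E2+Pg and from 9.58 to 10.01 (median 9.78) in C451A mice with E2. It rose by 1.11 on the log2 scale (SE 0.17, adjusted p = 0.0023), with no overlap, as 5.04% of all genes had in that comparison. Igf1r, the IGF-1 receptor, ran from 8.93 to 9.37 in C451A mice with E2+Pg and from 8.10 to 8.38 in C451A mice with E2, and rose by 0.92 (SE 0.13, adjusted p = 0.00149). Both calls held in all 30 alternative settings, with adjusted p from 0.000914 to 0.0151 for Egfr and 0.000852 to 0.0315 for Igf1r. In WT mice Egfr ran from 10.16 to 10.69 with E2+Pg and from 9.97 to 11.05 with E2 (−0.090, adjusted p = 0.826), and Igf1r differed by 0.14 (adjusted p = 0.616). The test of the difference between genotypes gave an interaction of 1.20 for Egfr (SE 0.25, adjusted p = 0.471) and 0.78 for Igf1r (SE 0.19, adjusted p = 0.471), neither of which was called, nor were their genotype differences under E2 (−0.77, adjusted p = 0.119, and −0.47, adjusted p = 0.145).

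Within groups, the 10 genes varied in 2 directions from mouse to mouse. As a description over 19 mice of deviations from group means, which share array and RNA quality within a mouse, r was 0.79 for Flot1 with Flot2, 0.74 for Flot2 with Lypla2, 0.73 for Cav2 with Flot1, 0.71 for Src with Zdhhc21 and 0.68 for Cav1 with Src. Lypla1 ran the other way, with r of −0.78 with Flot2, −0.67 with Flot1 and −0.62 with Cav2. By the same measure over 20647 genes with a value on all arrays, the patterns most like that of Cav2 were those of AA986860 (0.89), Ahcyl2 (0.88), Tmem9b (0.87), Afmid (0.86) and Eps8 (0.86). Those most like Cav1 were Adarb1 (0.84), Gm10516 (0.83), Glis1 (0.83), E030046B03Rik (0.83) and Pknox1 (0.83). For Src they were Ndfip2, Tmem120a, Pofut2, Mvp and a transcript named only by its identifier, all at 0.93.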

How the data were processed

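RNA of sorted LCs from 19 mice was measured on single-colour Agilent arrays on 5 slides. The deposited scanner files hold spot intensity values that the authors obtained with Agilent Feature Extraction 10.10.1.1 (submitters' processing notes). The deposited value table holds log2 values, made by the authors from the median signal by filtering, correction for washing-bath and labelling batches and quantile normalization (30207 probes, median 7.77 in each column), and it was used as an alternative. Those batches are not in the labels used here, so the slide was tried as a block.

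Log2 of the median signal was quantile-normalized with limma 3.58.1 in R 4.3.3 (package data.table, version 1.17.8). Each array held 59305 spots, and 1370 outlier spots over all 19 arrays were left out. None was saturated. A probe was kept if 4 or more of the 19 arrays had it well above background (31848 probes, 56.3%) and the brightest probe stood for each of 20671 genes, 7254 of which had several. Probes were named through RefSeq by accession (33881), symbol (9468) or synonym (490), and 12766 kept the name in the files. Group means were fitted to all arrays with limma (15 residual degrees of freedom, prior 2.99), two-sided, and calls needed p under 0.05 after Benjamini-Hochberg adjustment and a fold above 1.5. Exact permutation tests compared single genes, and correlations used 100000 permutations (Python 3.11.15, numpy 2.4.6, scipy 1.17.1, pandas 2.3.3). The fit was tested on simulated data.

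The text names all 10 genes, Esr1, up to 3 called genes of each pathway list or else those of lowest p, and the 5 genes most like Cav1, Cav2 and Src. The 10 genes and the lists were chosen with earlier results of these data known. Pathway lists cover the DHHC family, thioesterases, the caveolar coat, STRIPAK, Src family kinases, flotillin-related proteins and ERα partners, and marker lists cover luminal, basal, stromal, immune and muscle cells. Alternatives were other background corrections and scalings, the value table, other probe filters, the mean over probes, slide blocks, array weights, a fit to the groups compared alone and leaving out each mouse. A result of 1 listed gene is not reported here.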

Additional observations from a re-analysis of the deposited data

Results flagged for a closer look

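In 2 of the 40 gene and group combinations of the 10 genes, 1 mouse lay far from the rest by Dixon's criterion, which chance meets in about 1 of 20 groups. In C451A mice with E2+Pg, Cav1 was 6.85 in mouse L63 and 5.91 to 5.94 in the other mice, a gap of 0.97 of the whole range. In the same group, Flot2 was 11.47 in mouse L18, where the nearest other mouse had 11.77 and the highest 11.87, a gap of 0.74 of the range.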

How the results depend on the processing

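Of 178 counts of called genes among the 10, over 6 comparisons, 11 alternatives and 19 mice left out in turn, 168 equalled the count of 0 and 10 held at least 1 gene. For E2+Pg against E2 in C451A mice the count was 1 (Cav2) with normexp and quantile normalization (−0.72, adjusted p = 0.0475), with the authors' value table (−0.72, adjusted p = 0.0318) and with probes above background on all arrays (adjusted p = 0.0386, where Cav1 dropped out), and 2 with array weights (Cav2 at −0.67, adjusted p = 0.0173, and Cav1 at −0.70, adjusted p = 0.0409). Array weights also gave 2 calls between C451A and WT under E2 (Cav2 at 0.64, adjusted p = 0.0042, and Lypla1 at −0.75, adjusted p = 0.000739) and 1 in the average over treatments (Lypla1), the weights running from 0.24 (mouse L4) to 3.12 (mouse L51). Leaving out 1 mouse gave 0 to 1 calls with Pg in C451A mice, the call being Cav2 without L56, L63, L50 or L72, over a range of −0.85 to −0.55. The cause was not tested. Of 1774 recomputed differences of the 10 genes, 1762 kept their side of the threshold, 12 passed it and 0 called values reversed.

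Counts over all genes moved far more. With array weights they were 2238 (C451A against WT under E2, 6 otherwise), 2622 (under E2+Pg, 1 otherwise), 1878 (Pg in WT, 274 otherwise) and 2590 (averaged, 474 otherwise), and leaving out 1 mouse gave 0 to 1044, 1 to 1096, 28 to 577, and 5 to 993 for the same comparisons and 200 to 972 for Pg in C451A (509 with all mice). Slide blocks left Cav2 with Pg in C451A at adjusted p = 0.0798 and 0.0822, and a fit to the groups compared alone at 0.143. No paired analysis was possible because the mouse numbers of the labels are unique to 1 mouse each, other than by slide, which was used as the block above. Dim probes limit Cav1 and Strn, and the 1 probe each of Strn and Lypla2 has no second reading.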
